A study of Mus musculus with 8 samples.

Results

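The genes described here are those of the cytosolic ribosomal proteins, taken by symbol: rows of the count table whose name starts with Rpl or Rps and then a digit. Such a name was found for 102 of the 17353 genes, and 101 of them held at least 10 counts over the 8 libraries. Rpl3l, with 1 count in all, was left out. By a list of subunit genes, the 101 divided into 43 genes of the large ribosomal subunit and 30 of the small one, 73 subunit genes in all. The other 28 comprised 6 paralogs of subunit genes, 8 pseudogenes, 10 genes named for the ribosomal protein S6 kinases, which are signalling enzymes and not ribosomal proteins, and 4 further symbols (Rpl32l, Rpl6l, Rps19bp1 and Rps23rg1). The symbol rule also missed 7 ribosomal protein genes, among them Rplp0, Rplp1, Rplp2, Rpsa, Fau and Rack1, and these are given beside the members.

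Polyadenylated RNA of colonic mucosa was sequenced. The animals were C57BL/6J males, wild type, killed on day 7, 8 in all with 2 to each of 4 groups. Control mice drank no dextran sulfate sodium (DSS) and had saline enemas. Mice of the DSS model group drank 3% DSS, a sulfated polysaccharide toxic to the epithelium of the colon that serves as a model of ulcerative colitis, and had the same saline enemas. Both other groups also drank 3% DSS; the mesalazine group had enemas with mesalazine, an anti-inflammatory drug, at 50 mg/kg, and the Kuiyangling group had enemas with Kuiyangling, a herbal preparation, at 10 g/kg. Every enema had a volume of 0.2 ml, and the animals' ages are not given in the sources used here. The comparisons ask what the colitis model did to these genes and what each enema did on top of it.

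The cytosolic ribosome is built from ribosomal RNA and one copy of most of its proteins, so cells make the proteins in balanced amounts, and free ribosomal proteins are degraded. In mammals most of these genes give short, abundant mRNAs that begin with a run of pyrimidines, the 5′ terminal oligopyrimidine (TOP) motif, through which mTOR signalling and LARP1 control how well they are translated. Translation elongation factors carry the same motif. In the colon, ribosome production is known to be high in the proliferating cells of the crypt base.

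Because the TOP motif is shared by so many of the members, windows around their annotated start sites are shown for genes described later. RefSeq (GRCm38.p6) start windows were at hand for 72 of the 101 members, among them 54 subunit genes with 64 start sites. Each window runs from 30 bases before the start to 20 bases from it, 5′ to 3′ on the gene's strand. Capitals mark a run of at least 6 pyrimidines that begins with C no more than 10 bases from the start. Rpl13a, Rps18 and Rps26 are among the members with the highest level per length, Rpl18 and Rpl27a among those that moved most evenly with the rest, and Rps6 is the substrate of the S6 kinases.
Rpl13a, chr7:45128726-45128775, minus strand: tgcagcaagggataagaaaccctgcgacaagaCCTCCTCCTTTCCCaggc
Rps18, chr17:33955646-33955695, minus strand: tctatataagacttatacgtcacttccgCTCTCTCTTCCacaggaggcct
Rps26, chr10:128626487-128626536, minus strand: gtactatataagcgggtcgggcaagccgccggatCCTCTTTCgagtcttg
Rpl18, chr7:45718041-45718090, plus strand: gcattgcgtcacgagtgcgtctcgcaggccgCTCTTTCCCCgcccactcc
Rpl27a, chr7:109519165-109519214, plus strand: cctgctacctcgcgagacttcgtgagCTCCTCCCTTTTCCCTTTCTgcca
Rps6, chr4:86857348-86857397, minus strand: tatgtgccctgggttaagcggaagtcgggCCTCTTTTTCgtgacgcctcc
All 6 windows hold such a run within a few bases of the annotated start, but they are examples, and only 48.4% of subunit windows held one. Rpl41, Rpl5 and Rpl11, also described later, had none. Their longest stretch was 3, 3 and 2 bases.

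The next windows are shown because they differ from these or from each other. Rpl13 and Rpl10 are abundant members without such a run at the annotated start. Rps27 and its retrotransposed copy Rps27rt hold the same 19 bases from about the start onward, and Rpl22l1 is the paralog of Rpl22.
Rpl13, chr8:123102320-123102369, plus strand: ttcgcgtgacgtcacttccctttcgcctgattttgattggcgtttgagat
Rpl10, chrX:74270786-74270835, plus strand: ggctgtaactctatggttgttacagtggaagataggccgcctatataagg
Rps27, chr3:90213629-90213678, minus strand: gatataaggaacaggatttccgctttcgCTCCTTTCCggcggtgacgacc
Rps27rt, chr9:114982720-114982769, minus strand: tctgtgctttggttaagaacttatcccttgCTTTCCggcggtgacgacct
Rpl22l1, chr3:28805478-28805527, plus strand: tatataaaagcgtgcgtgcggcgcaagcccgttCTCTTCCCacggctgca
Between Rps27 and Rps27rt the shared stretch was CTTTCCGGCGGTGACGACC, which begins inside the pyrimidine run, at the start of Rps27rt and at the base after the start of Rps27. It ends where the printed Rps27 window ends, so its length is a limit of the windows.

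Over all subunit start windows, 48.4% held the pyrimidine run, against 19.2% of all 32851 windows in the RefSeq table. It was in 47.4% of large-subunit and 50.0% of small-subunit windows. Other motifs were counted on both strands from 250 bases before to 50 bases after each start. A palindrome, not spelled out here, was in 10.9% of subunit windows (7 of 64) and 0.466% of all. CCGGAAG, a core of ETS family sites, was in 35.9% of subunit windows and 8.86% of all. AAGATGGCG, the core of YY1 sites, in 7.81% and 1.4%, CACGTG, the E-box, in 12.5% and 7.15%, and TATAAA in 7.81% and 13.6%. CCGGAAG and AAGATGGCG can overlap each other, and the reverse strand of CCGGAAG can overlap a pyrimidine run. These are matches of letters in the reference and no measurement in these animals. The genome build of the deposited tables is not given in the sources used here. The windows are therefore tied to the measured genes by symbol alone.

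The libraries held between 15560946 and 17843715 counts. The list of 10 epithelial markers was detected in full in every library, with summed levels of 20476 to 29973 CPM (counts scaled to library size by TMM). Mesalazine 1 stands apart in what follows, and the tests of the share and ratio, the medians of the comparisons and the spread of the subunit genes are also given without it. Control 2 stood apart in other lists: the median of 8 B cell markers there was 3.39 above those genes' means on the log2 scale, against -1.28 to 1.04 in the other 7 libraries. In bulk tissue, fewer cells of a type and less RNA per cell cannot be told apart.

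The ribosomal share of the library was largest in mesalazine 1. The 101 members took 4.06% and 3.35% of counts in the control libraries, given as replicates 1 and 2, and 4.14% and 6.68% in the DSS model. They took 12.7% and 5.77% with mesalazine and 5.31% and 5.03% with Kuiyangling. The 95% Wilson interval of each share reached at most 0.0158 percentage points to either side, which covers counting error only, since PCR reads are not independent molecules. Group means were 3.70 ± 0.504% in controls, 5.41 ± 1.80% in the DSS model, 9.21 ± 4.87% with mesalazine and 5.17 ± 0.196% with Kuiyangling (SD, n = 2 each). Mesalazine 1 lay 1.89-fold above DSS model 2, the next highest library. The other 7 libraries ran from 3.35% to 6.68%, with a mean of 4.90 ± 1.14% (SD, n = 7).

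Among those 7 libraries both controls were below the rest, but control 1 and DSS model 1 were only 4.06% and 4.14%. The DSS model libraries lay on either side of both Kuiyangling libraries and of mesalazine 2. Over the 4 groups the share did not differ beyond the spread between animals (exact permutation test on log2 shares, all 2520 assignments, two-sided, p = 0.219, adjusted over 2 tests 0.238; the smallest p this design allows is 0.00952). Without mesalazine 1, this p was 0.390. Between 2 groups of 2 animals such a test cannot pass, so pairs of groups are given by their values.

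The 2 subunits took 12.5% of counts together in mesalazine 1, with 6.86% in large-subunit and 5.60% in small-subunit genes. In the other libraries they took between 3.24% and 6.53%. The 6 paralogs took at most 0.136% and the pseudogenes at most 0.0108%, both in mesalazine 1. The 10 S6 kinases went the other way, from 0.0513% to 0.0599% in the 7 other libraries to 0.0403% in mesalazine 1. In FPKM, in which each gene is divided by its length and which the authors deposited beside the counts, the members' share was 11.1% and 9.21% in controls, 10.0% and 14.9% in the DSS model, 23.3% and 14.3% with mesalazine and 12.6% and 12.9% with Kuiyangling. The order of the libraries in FPKM was not that in counts, since DSS model 1 then lay below control 1.

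**Figure D1:**
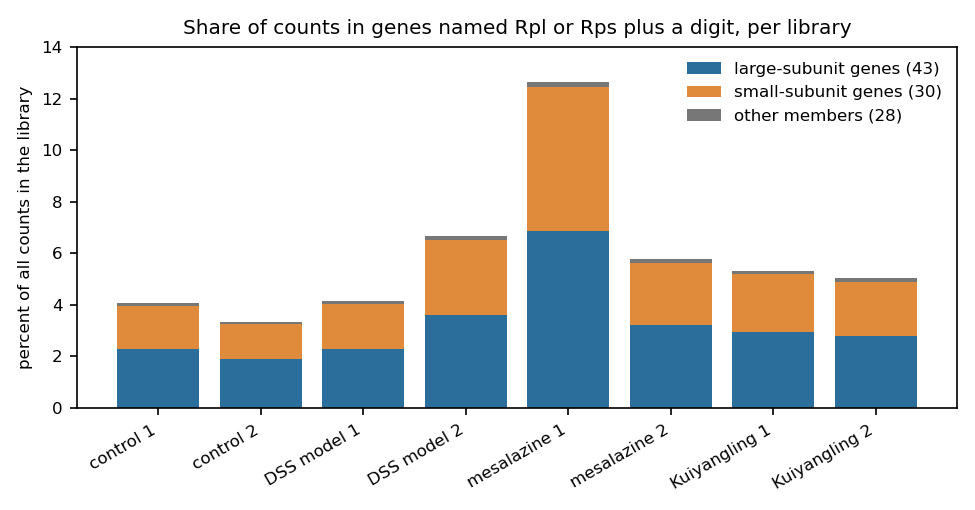
Stacked bars of the percent of a library's counts in large-subunit genes (43), small-subunit genes (30) and the other 28 members, 1 bar for each of the 8 animals. Mesalazine 1 reaches 12.7%, while the other 7 bars end between 3.35% and 6.68%.

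The antimicrobial lectin gene Reg3b, one of the most abundant transcripts of inflamed mucosa, took 0.0484% and 0.0164% of counts in controls, 1.71% and 1.37% in the DSS model, 3.87% and 0.466% with mesalazine and 1.03% and 0.445% with Kuiyangling. It was highest in the library where the ribosomal share was highest. Taken over counts without Reg3b, the members' share of mesalazine 1 was 13.2% and that of DSS model 2 was 6.77%.

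Small-subunit counts per large-subunit count were 0.731 and 0.702 in controls, 0.761 and 0.810 in the DSS model, 0.816 and 0.755 with mesalazine and 0.765 and 0.757 with Kuiyangling. Both controls were the lowest of the 8 libraries. The 3 groups with DSS overlapped, and mesalazine 1 was only 1.01-fold above DSS model 2. Over the 4 groups this ratio did not pass either (exact permutation test, two-sided, p = 0.238, adjusted 0.238), and without mesalazine 1 its exact p was 0.124. A ratio within a library does not depend on its depth. Small-subunit genes were shorter, at a median of 693.5 against 934 bases, and the part of length in this ratio was not tested. From FPKM the ratio was 0.840 and 0.802 in controls and 0.886 and 0.910 in the DSS model. It was 0.907 and 0.874 with mesalazine and 0.885 and 0.872 with Kuiyangling (exact permutation test, p = 0.0571).

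Nearly all subunit genes followed the share. For each gene, log2 CPM was set against its mean over the 8 libraries; the median over the 73 subunit genes was then -0.63 and -0.77 in controls, -0.31 and 0.36 in the DSS model, 1.54 and 0.05 with mesalazine, and -0.03 and -0.26 with Kuiyangling. In mesalazine 1 the 73 genes spread from 0.93 to 1.86, and the highest value in another library was 0.71, in DSS model 2. Every one of the 73 was highest in mesalazine 1, by 1.64-fold over the next library for Rpl4 to 2.64-fold for Rpl32 (median 2.22-fold). The lowest library was control 2 for 54 of them, control 1 for 18 and DSS model 1 for 1.

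**Figure D2:**
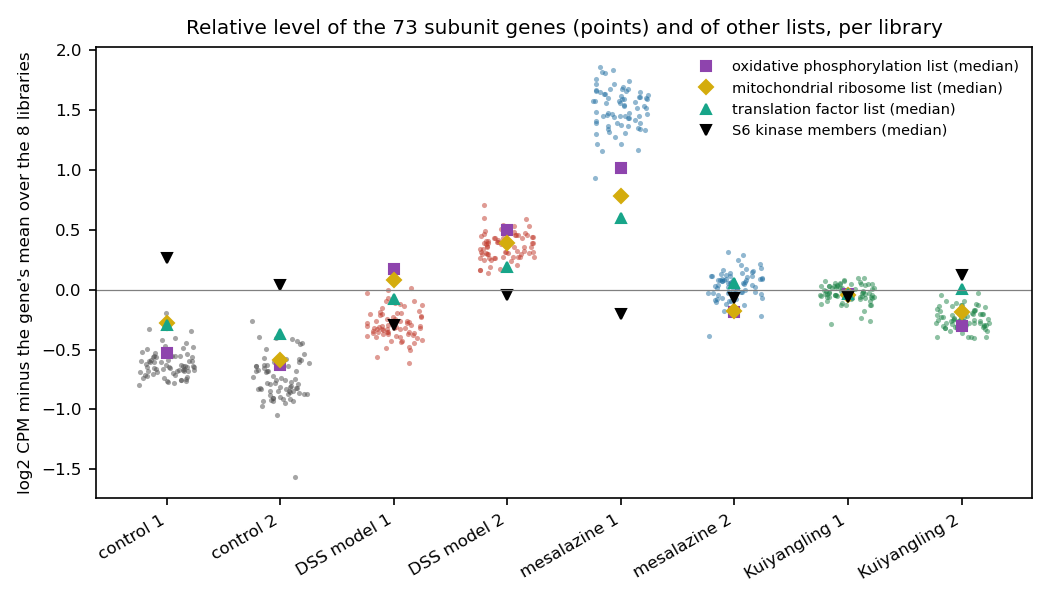
Each point is 1 of the 73 subunit genes, as log2 CPM minus the gene's mean over the 8 libraries; squares, diamonds and triangles are medians of the oxidative phosphorylation, mitochondrial ribosome, translation factor and S6 kinase lists. The cloud of mesalazine 1, from 0.93 to 1.86, does not overlap that of any other library, and its S6 kinase median lies at -0.20.

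The members with the highest level per length were, in the large subunit, Rpl41, the smallest ribosomal protein, at a mean of 3296.5 FPKM over the 8 libraries, then Rpl32, Rpl13 and Rpl13a at 1669, 1587 and 1390 FPKM. Rpl13a also acts outside the ribosome in the interferon-driven GAIT complex. In the small subunit they were Rps14, a protein of the decoding platform, at 2079 FPKM, then Rps29, Rps18 and Rps26 at 1827, 1780 and 1707 FPKM. At the other end Rps15a had 100.4 FPKM, Rpl22 151 FPKM and Rpl21 153 FPKM. FPKM of Rps15a rests on a length of 5136 bases in the deposited values, the longest of the subunit genes, whose median length was 795 bases against 3310 for all genes.

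Rpl41 stood at 869 and 934 CPM in controls, 1051 and 1869 CPM in the DSS model, 4452 and 1132 CPM with mesalazine, and 1096 and 1025 CPM with Kuiyangling. Both controls were lowest, and mesalazine 2 lay among the DSS and Kuiyangling libraries. Rps14 stood at 656 and 573 CPM in controls, 866 and 1448 CPM in the DSS model, 3479 and 1274 CPM with mesalazine, and 1179 and 893 CPM with Kuiyangling. Rpl13a had 823 and 854 CPM in controls, 1020 and 1664 CPM in the DSS model, 3868 and 1324 CPM with mesalazine, and 1272 and 1056 CPM with Kuiyangling. The order of the libraries was nearly the same in these 3 genes.

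Rps18, of the head of the small subunit, had 582 and 469 CPM in controls, 685 and 1143 CPM in the DSS model, 2702 and 944 CPM with mesalazine, and 889 and 733 CPM with Kuiyangling. Rps6, the target of the S6 kinases, had 552 and 486 CPM in controls, 584 and 887 CPM in the DSS model, 2022 and 800 CPM with mesalazine, and 740 and 721 CPM with Kuiyangling. For both genes the controls did not overlap the DSS libraries in CPM. In FPKM, which TMM does not scale, control 1 lay above DSS model 1 for Rps18 (1200 against 1172) and Rps6 (448 against 393). Rpl5 and Rpl11 bind the 5S ribosomal RNA and, when free, the p53 regulator MDM2. Rpl5 had 666 and 610 CPM in controls, 712 and 1055 CPM in the DSS model, 2193 and 1151 CPM with mesalazine, and 904 and 883 CPM with Kuiyangling. Rpl11 had 480 and 408 CPM in controls, 570 and 839 CPM in the DSS model, 1825 and 709 CPM with mesalazine, and 634 and 563 CPM with Kuiyangling. In both partners the controls were lowest in CPM and mesalazine 1 highest. In FPKM control 1 lay above DSS model 1, at 372 against 330 for Rpl5 and 342 against 337 for Rpl11.

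The first comparison, of the DSS model with controls, asks what the colitis did. All 73 subunit genes had estimates above 0, with a median log2 change of 0.77 (range 0.14 for Rpl3 to 1.31 for Rps27a), and none of them passed the test. By edgeR's quasi-likelihood test 0 of 99 members tested passed (Benjamini-Hochberg over all genes, threshold 0.05), against 0.247% of all 13381 genes; 5 members had an unadjusted p under 0.05, against 14.8% of all genes, and DESeq2 and limma also called 0. For 71 subunit genes both DSS model libraries lay above both controls in CPM, against 27.1% of all genes. That separation leans on the TMM factors, 1.132 in control 1 and 0.9393 in DSS model 1. Without them the subunit genes took 3.94% of counts in control 1 and 4.01% in DSS model 1. In FPKM they took 10.8% and 9.83%, so control 1 was then the higher. The median over the 99 members was 0.73, with 91 estimates above 0, and that over all genes was -0.04. Rps27a, a fusion of a ribosomal protein with ubiquitin, had the largest estimate of the subunit genes, 1.31 (SE 0.55, edgeR adjusted p = 0.315). It stood at 346 and 192 CPM in controls and 401 and 930 CPM in the DSS model, so this rank leans on the low value of control 2.

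The member with the smallest p in this comparison was a kinase, Rps6ka5 (MSK1, a stress-activated histone kinase), at a log2 change of -1.73 (SE 0.59, edgeR adjusted p = 0.244). It stood at 2.53 and 2.65 CPM in controls, 0.629 and 0.928 CPM in the DSS model, 0.991 and 2.57 CPM with mesalazine, and 1.55 and 2.08 CPM with Kuiyangling. The DSS model and control libraries did not overlap, but the gene had only 10 and 14 counts in the DSS model. Marker lists of cell types were also compared between these groups. Myeloid markers had a median log2 change of 0.73 with 2 of 8 called higher, against 26 of all 13381 genes. The myeloid sum was 65.7 to 85.4 CPM in controls and 152 to 166 CPM in the DSS model. B cell markers had a median of -2.68, with 0 of 8 called and 0 of 8 without overlap. Their sum was 81.8 to 98.8 CPM in controls and 40.3 to 122 CPM in the DSS model. By library their median relative level was -1.28 and 3.39 in controls and -0.83 and 1.04 in the DSS model, so the groups overlapped. Counts in all 8 libraries were present for 6 of the 8 myeloid and 5 of the 8 B cell markers. Over the 8 libraries the B cell median and the subunit median had r = -0.29 (permutation p = 0.475, adjusted over 8 relations 0.543) and rho = 0.05 (permutation p = 0.935, adjusted 0.977), with r = 0.16 without control 2 and DSS model 2.

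Erythroid markers such as haemoglobin genes, which mark blood in the tissue, had a median log2 change of 3.34 in the DSS model, with 0 called. For 5 of 5 tested, both DSS model libraries lay above both controls, against 27.1% of all genes. The erythroid sum was 2.65 to 8.27 CPM in controls and 20.1 to 76.3 CPM in the DSS model. It was 52.1 to 80.5 CPM with mesalazine and 43.04 to 54.9 CPM with Kuiyangling, with counts for 6 of 6 in every library. Mesalazine 1 and DSS model 2, the libraries with the highest ribosomal shares, also had the highest erythroid sums. Smooth muscle markers had a median of -1.74 with 0 called, at 24.5 to 89.4 CPM in controls and 14.3 to 32.6 CPM in the DSS model, and 7 of 8 had counts in every library. The part of the myeloid, erythroid and smooth muscle values in the ribosomal values was not tested.

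DSS model 2 carried much of this difference. Without it the median of the members was 0.38, and without DSS model 1 or either control it kept its sign. With a correction for gene length, described further on, the median was 0.08 over the members and 0.10 over the subunit genes, against 0.73 and 0.77 without it.

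Mesalazine was also compared with controls. All 73 subunit genes again had estimates above 0, with a median of 1.65 (range 1.07 for Rpl3 to 2.33 for Rps27a), and all 73 had an unadjusted p under 0.05, against 20% of all genes. None passed after adjustment: edgeR called 0 of 99 members, against 0.673% of all genes, and the smallest adjusted p of a subunit gene was 0.0902, for Rps27a. That gene had 192 CPM in control 2, against 346 CPM in control 1. The member nearest the threshold was Rps27rt, which stood at 34.6 and 28.7 CPM in controls, 42.5 and 66.3 CPM in the DSS model, 168 and 78.1 CPM with mesalazine, and 57.4 and 47.5 CPM with Kuiyangling (log2 change 1.96, SE 0.39, edgeR adjusted p = 0.0605). For 72 subunit genes both mesalazine libraries lay above both controls, against 23.6% of all genes.

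This comparison sat close to the threshold and depended on the tool. DESeq2 called 76 members, all higher, against 7.53% of all genes, edgeR without a filter on low counts 74 (6.28%) and edgeR on these 4 libraries alone 3 (2.43%), while limma on FPKM called 0. It also depended on mesalazine 1. Without mesalazine 2, which leaves mesalazine 1 alone in its group and assumes that it varies like the other groups, edgeR called 83 members, 82 higher and 1 lower, among them all 73 subunit genes, against 19.6% of all genes. Without mesalazine 1 the count was 0 and the median of the subunit genes 0.72, near that of the DSS model against controls.

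The effect of the drug enema on top of DSS was asked by comparing mesalazine with the DSS model. The median log2 change of the subunit genes was 0.91, and all 73 estimates were above 0 (range 0.59 to 1.13). Yet for only 2 of them did the libraries of the 2 groups not overlap, against 14% of all genes, since mesalazine 2 did not lie above both DSS model libraries for the other 71. EdgeR called 0 of 99 members, against 0% of all genes, with 8 at an unadjusted p under 0.05, against 5.49% of all genes, and DESeq2 and limma called 0. Without mesalazine 1 the median was -0.04, with 26 of 73 estimates above 0.

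The same was asked of the herbal enema by comparing Kuiyangling with the DSS model. Subunit genes had slightly lower values, with a median of -0.21 and 70 of 73 estimates below 0 (range -0.46 to 0.02). EdgeR called 0 of 99 members, against 0% of all genes, with 0 at an unadjusted p under 0.05, against 3.56% of all genes, and DESeq2 and limma called 0. For 2 subunit genes both Kuiyangling libraries lay below both DSS model libraries, against 21.1% of all genes. The sign was not stable: without DSS model 2 the median of the members was 0.18, and with the length correction 0.10. With 2 animals a group, no difference was detectable.

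Kuiyangling against controls gave a median of 0.55 over the subunit genes, with 73 of 73 estimates above 0. For 71 of them both Kuiyangling libraries lay above both controls, against 25.9% of all genes. EdgeR called 0 of 99 members, against 0.239% of all genes, with 1 at an unadjusted p under 0.05, against 10.3% of all genes, and DESeq2 and limma called 0. That member was Rps6ka2 (RSK3), another kinase, at -1.59 (SE 0.67, edgeR adjusted p = 0.450) on only 5 to 30 counts a library. This comparison shares its controls with those of the DSS model and of mesalazine, so the 3 sets of estimates are not independent.

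Kuiyangling and mesalazine were compared with each other as alternative enemas. The median of the subunit genes was -1.10, with 73 of 73 below 0 (range -1.40 for Rpl41 to -0.65 for Rpl4). For 56 of them both Kuiyangling libraries lay below both mesalazine libraries, against 11.6% of all genes. EdgeR called 0 of 99 members, against 0% of all genes, although 63 had an unadjusted p under 0.05, against 1.9% of all genes, and DESeq2 and limma called 0. Without mesalazine 1 the median was -0.18, with 4 of 73 above 0, and with the length correction and all libraries it was -0.42, with 0 of 73 above 0.

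**Figure D3:**
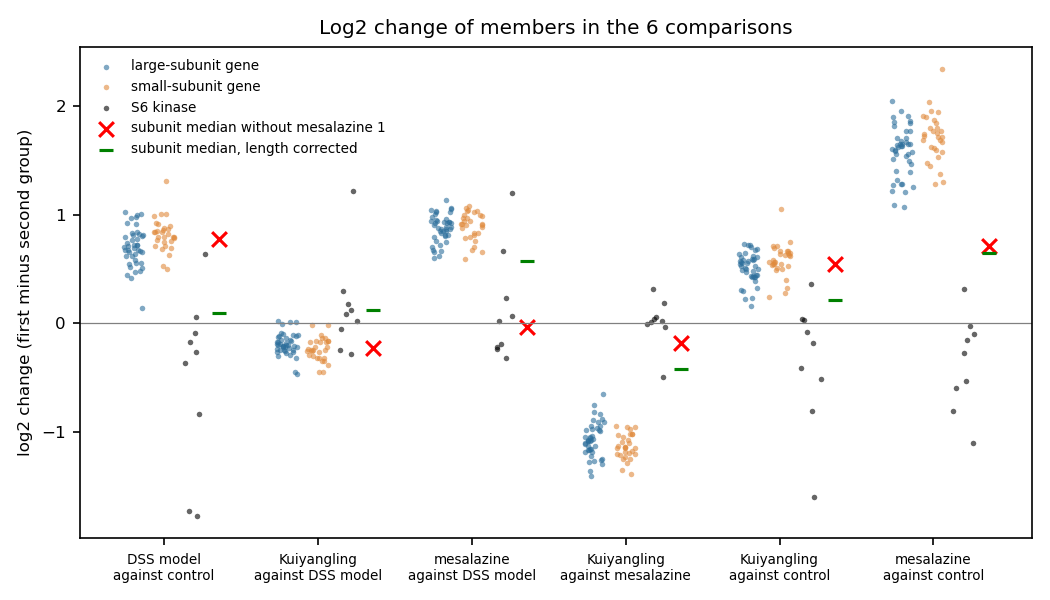
Log2 changes (first minus second group, edgeR) in the 6 comparisons, 1 point per large-subunit, small-subunit or S6 kinase gene, with the subunit median without mesalazine 1 as a cross and with the length correction as a dash. The cross for mesalazine against the DSS model lies at -0.04, under a cloud with a median of 0.91.

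In mesalazine 1 short genes as a whole had higher values. This was seen over 13275 tested genes, without the members and the 7 genes that the symbol rule missed. Spearman's rho between gene length and the level relative to the gene's mean was -0.526 in mesalazine 1, -0.427 in DSS model 2 and -0.106 in DSS model 1. It was 0.437 and 0.257 in controls, 0.287 in mesalazine 2, and -0.021 and 0.379 with Kuiyangling. These are correlations across genes, and genes are no replicates. The subunit median and this length trend went together over the 8 libraries (Pearson's r = -0.80, permutation p = 0.0157, adjusted over 8 relations 0.0209; Spearman's rho = -0.62, permutation p = 0.115, adjusted 0.153). Without mesalazine 1 and DSS model 2, r was -0.35, so the relation rests on those 2 libraries.

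In mesalazine 1 the subunit genes were high for their length. After a smooth trend on length was taken out of each library, the subunit median there was 0.59, against -0.18 and -0.28 in controls, -0.34 and 0.0049 in the DSS model, 0.18 in mesalazine 2, and -0.04 and -0.01 with Kuiyangling. Mesalazine 1 was still highest, with mesalazine 2 next. For mesalazine against the DSS model the corrected median was 0.58, and all 73 estimates were above 0; it was 0.32 with mesalazine 1 also left out, when 70 of 73 were above 0. For mesalazine against controls it was 0.64, or 0.43 without mesalazine 1, with 70 of 73 above 0. EdgeR called 0 members in all of these corrected fits.

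Other short genes give a gauge. Against the mean of the other 7 libraries, mesalazine 1 was higher by a median of 1.68 (log2) in large-subunit and 1.81 in small-subunit genes. The 51 nuclear genes of a list of small oxidative phosphorylation subunits, with a median length of 602 bases, were higher by a median of 1.16 (range 0.82 to 1.52). The lowest small-subunit gene, at 1.53, lay just above the highest of these. Large-subunit genes overlapped them, down to 1.07 for Rpl4. The 78 mitochondrial ribosome genes, of median length 1413 bases, had a median of 0.90 but ran from -0.08 to 1.72 (Mrpl33), and the translation factors ran up to 1.57 (Eef1b2), so the top of both lists overlapped the small-subunit genes. Rps15a was higher by 1.91. Its deposited length of 5136 bases is 1 fixed value for the gene, and the length of the transcripts present was not measured. The S6 kinases, of median length 5783 bases, had a median of -0.23.

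**Figure D4:**
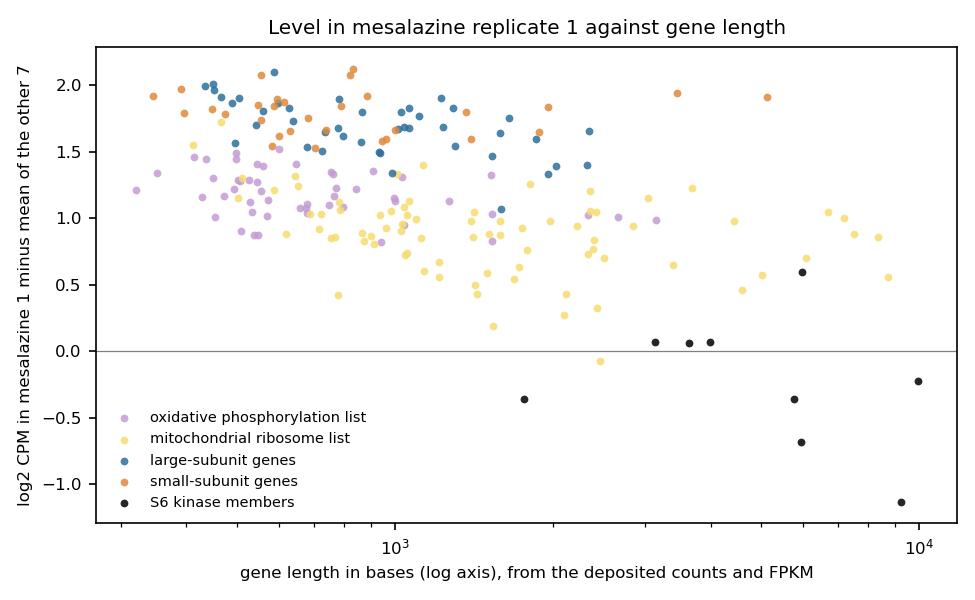
Difference in log2 CPM between mesalazine 1 and the mean of the other 7 libraries against gene length (log axis), for subunit genes, S6 kinases, and the lists of oxidative phosphorylation and mitochondrial ribosome genes. Small-subunit genes lie from 1.53 to 2.12, above the oxidative phosphorylation genes (0.82 to 1.52) of like length but not above every mitochondrial ribosome gene (up to 1.72), and the S6 kinases from -1.13 to 0.59.

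The ribosomal protein genes that the symbol rule missed went with the members. Rplp1, a protein of the stalk that recruits elongation factors, had 923 and 878 CPM in controls, 1205 and 2123 CPM in the DSS model, 5135 and 1427 CPM with mesalazine, and 1493 and 1209 CPM with Kuiyangling. Rack1, a signalling scaffold on the small subunit, had 839 and 790 CPM in controls, 956 and 1332 CPM in the DSS model, 2857 and 1180 CPM with mesalazine, and 1117 and 1048 CPM with Kuiyangling. The median of the 7 was higher by 1.62 in mesalazine 1 than in the other libraries, and their median followed the subunit median over the 8 libraries (r = 0.99, permutation p = 0.000397, adjusted 0.00159; rho = 0.93, permutation p = 0.00223, adjusted 0.00893; r = 0.97 without mesalazine 1 and control 1). Both medians come from the same libraries and scaling.

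Translation factors followed the subunit genes in smaller steps. The median over 36 of them was -0.29 and -0.37 in controls, -0.07 and 0.19 in the DSS model, 0.60 and 0.05 with mesalazine and -0.04 and 0.01 with Kuiyangling (r = 0.98 with the subunit median, permutation p = 0.000298, adjusted 0.00159; rho = 0.98, permutation p = 0.000397, adjusted 0.00317; r = 0.94 without mesalazine 1 and control 2). Eef1a1, the elongation factor that brings aminoacyl-tRNA and a TOP gene, had 5289 and 4420 CPM in controls, 5742 and 7026 CPM in the DSS model, 12241 and 6539 CPM with mesalazine, and 6118 and 6647 CPM with Kuiyangling. Tpt1, another TOP gene, had 1500 and 1568 CPM in controls, 2287 and 3105 CPM in the DSS model, 5994 and 2694 CPM with mesalazine, and 2759 and 1925 CPM with Kuiyangling. In none of the 6 comparisons did edgeR call one of the 36.

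Genes that build or govern ribosomes had smaller differences between groups. The median log2 change of 40 ribosome biogenesis genes was 0.27 for the DSS model and 0.29 for mesalazine against controls, or 0.14 for mesalazine without mesalazine 1, with 0 called in each. Their median still went with the subunit median over the 8 libraries (r = 0.79, permutation p = 0.00685, adjusted 0.0110; rho = 0.88, permutation p = 0.00724, adjusted 0.0193; r = 0.58 without mesalazine 1 and control 2). Npm1, a nucleolar chaperone, had 289 and 153 CPM in controls, 185 and 425 CPM in the DSS model, 541 and 387 CPM with mesalazine, and 299 and 384 CPM with Kuiyangling, so that both controls lay below both mesalazine and both Kuiyangling libraries but not below both of the DSS model. Myc, a driver of ribosome production, lay between 19.5 and 25.2 CPM in every library. Mtor lay between 36.3 and 53.5 CPM, with both controls highest, and Larp1 between 97.5 and 136 CPM, also with both controls highest. Of 18 growth control genes 0 were called in these 2 comparisons. Proliferation markers, 8 of 8 with counts in every library, had summed levels of 401 and 332 CPM in mesalazine 1 and 2, within the range of the controls (319 to 639 CPM). Their median and the subunit median had r = 0.24 (permutation p = 0.644, adjusted 0.644) and rho = 0.02 (permutation p = 0.977, adjusted 0.977), with r = 0.46 without control 1 and DSS model 1.

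The lists of other short genes went with the subunit median as well. For oxidative phosphorylation genes r was 0.93 (permutation p = 0.00233, adjusted 0.00496) and rho 0.83 (permutation p = 0.0154, adjusted 0.0246), with r = 0.71 without mesalazine 1 and DSS model 2. For mitochondrial ribosome genes r was 0.92 (permutation p = 0.00248, adjusted 0.00496) and rho 0.83 (permutation p = 0.0154, adjusted 0.0246), with r = 0.69 without the same libraries. All of these medians share libraries, depth and scaling.

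Among themselves the subunit genes kept their proportions more closely than their level. When each was expressed relative to the library's subunit median, the SD over the 8 libraries was 0.11 (log2) at the median of the 73 genes, against 0.72 before, and under 0.2 for 67 of them. Taking off the median of these same genes removes their shared movement by construction. No other list was set against its own median, so the fall is not shown to be particular to them. The median SD of log2 CPM over all tested genes, each against its own mean and not against a list, was 0.39. Over the 7 libraries without mesalazine 1 these SDs were 0.10 relative to the subunit median, 0.40 before and 0.33 over all genes. Rpl27a and Rpl18 were among the most even members, at SDs of 0.047 and 0.053. With its mean over the 8 libraries set to 0, Rpl27a held between -0.06 and 0.05 in all 8. Rpl27a itself ran from 476 CPM in control 2 to 2386 CPM in mesalazine 1, so an even proportion went with a wide range of levels.

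A few subunit genes left the common course in single libraries; these were picked after their values were seen. Their levels relative to the library's subunit median are given with each gene's mean over the 8 libraries set to 0. A negative value is thus low for that gene and need not lie below the subunit median. Rps27a was at -0.82 in control 2, where it had 192 CPM, against -0.23 to 0.36 in the other libraries. Rpl28 was highest in control 2, at 0.48, and lay from -0.27 to 0.28 elsewhere. Rpl4 was lowest in mesalazine 1, at -0.58, against -0.21 to 0.27 elsewhere. It is 1597 bases long, against a median of 795 for the subunit genes. Within the 73 genes Spearman's rho between length and relative level ran from -0.418 in mesalazine 1 to 0.418 in Kuiyangling 2. The part of length in these single values was not tested. Rps2 was lowest in mesalazine 2, at -0.44. Rpl3 was higher in both controls, at 0.42 and 0.34, than in the other 6 libraries, which ran from -0.29 to 0.22. Within a library the spread of the 73 relative values was widest in control 2 (SD 0.19) and mesalazine 1 (0.17), and narrowest in Kuiyangling 1 (0.08).

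**Figure D5:**
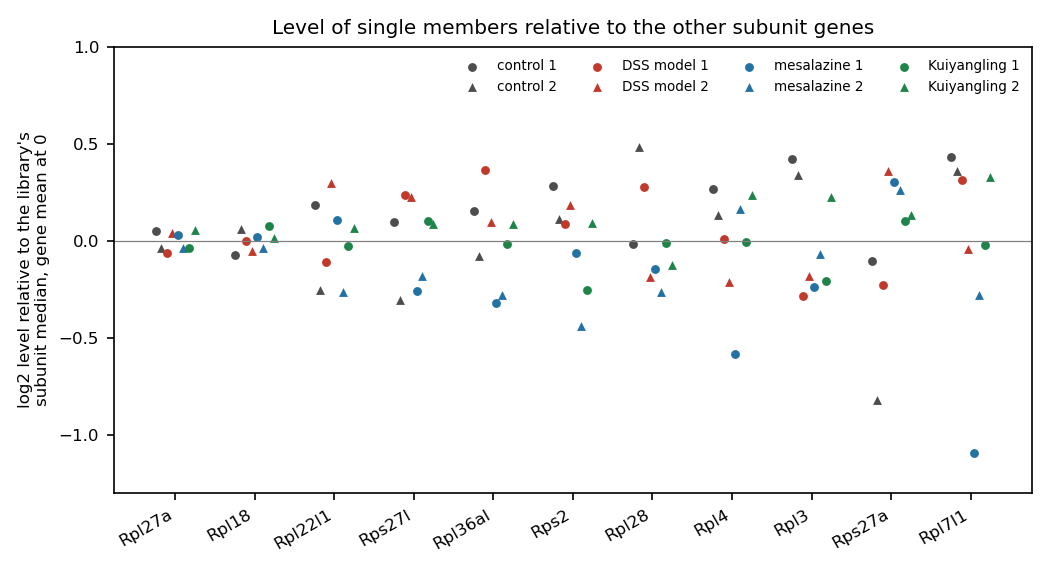
Log2 level relative to the library's subunit median, with the gene's mean at 0, for 2 of the most even members, 4 paralogs and 5 subunit genes with high spread, 1 symbol per library. Rpl27a stays between -0.06 and 0.05, Rps27a lies at -0.82 in control 2 and Rpl7l1 at -1.09 in mesalazine 1.

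The paralogs kept to their parents to different degrees. Rpl22l1, which can replace Rpl22 in the ribosome, had between 0.369 (mesalazine 2) and 0.505 (mesalazine 1) counts per count of Rpl22, with 0.466 and 0.407 in controls. Per length it was the more abundant of the pair, at 333 against 151 FPKM. Rpl36al had 0.700 and 0.583 counts per count of Rpl36a in controls, 0.779 and 0.559 in the DSS model, 0.417 and 0.429 with mesalazine, and 0.521 and 0.612 with Kuiyangling. Its ratio was lowest in both mesalazine libraries. Rps27l, a p53-responsive paralog, had 0.225 to 0.366 counts per count of Rps27, lowest in mesalazine 1. Rps27l is 2150 bases long and Rps27 346, and the part of length in these ratios was not tested.

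Rpl7l1, a nucleolar protein of large-subunit assembly, went its own way. It stood at 61.1 and 53.0 CPM in controls, 71.1 and 85.7 CPM in the DSS model, 92.9 and 59.1 CPM with mesalazine, and 66.7 and 72.5 CPM with Kuiyangling. In mesalazine 1 it was thus near DSS model 2, and its ratio to Rpl7 was 0.0312 there, against 0.0436 to 0.0768 in the other libraries. Rpl7l1 is 2606 bases long and Rpl7 934, and the part of length in this ratio was not tested either. Of the retrotransposed copies, Rpl37rt had 0.144 to 0.180 counts per count of Rpl37, a 1.25-fold range. Rps27rt had 0.109 to 0.152 per count of Rps27, a 1.40-fold range, and was highest in mesalazine 2. Reads of such near-identical copies, and of the pseudogenes, can be split or shared between loci by the authors' counting, so their values are uncertain. The most abundant pseudogene, Rpl34-ps1, had 20.3 CPM in control 2 and 109 CPM in mesalazine 1, as did its parent Rpl34 in proportion, at 218 and 1243 CPM.

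The S6 kinases were not highest where the ribosomal proteins were. Rps6ka1 (RSK1), the most abundant, had 247 and 347 CPM in controls, 344 and 276 CPM in the DSS model, 293 and 243 CPM with mesalazine, and 270 and 254 CPM with Kuiyangling, and its groups overlapped in every pair except Kuiyangling and the DSS model. Rps6kb1, the S6 kinase downstream of mTOR, had 39.98 and 29.97 CPM in controls, 26.2 and 32.2 CPM in the DSS model, 28.9 and 39.8 CPM with mesalazine, and 32.5 and 39.1 CPM with Kuiyangling. Relative to the subunit median their SDs were 0.67 to 1.25. Their own SDs of log2 CPM were 0.77, 0.73 and 0.92 for Rps6ka2, Rps6ka5 and Rps6ka6, on 110, 241 and 181 counts in all, and 0.15 to 0.46 for the other 6 tested. In mesalazine against controls the median log2 change was -0.27 over the 9 kinases tested, with 1 of 9 estimates above 0, and 1.65 over the subunit genes; without mesalazine 1 these were -0.17, with 3 of 9 above 0, and 0.72. None of the 9 was called by edgeR in any of the 6 comparisons, and Rps6kl1 was too low to be tested.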

How the data were processed

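Read counts per gene and FPKM were deposited by the authors for 8 libraries of colonic mucosa. Per the labels' protocols, RNA with an integrity number of at least 7 was used and libraries were made with a stranded mRNA kit. Trimmomatic and HISAT2 are named in the submitters' processing notes; the sources used here name no build, annotation, read counter or use of strand. The deposited FPKM are the counts over each library's total and 1 fixed length for each gene, as checked on all 17353 genes, and gave the lengths. Rows of mitochondrially encoded genes numbered 0.

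Counts of genes passing filterByExpr (13381) were fitted with edgeR 4.0.16 (R 4.3.3; TMM; quasi-likelihood F tests; all 8 libraries, a mean per group; common biological coefficient of variation 0.287) and adjusted by Benjamini-Hochberg. Log2 CPM used a prior count of 2. Alternatives were DESeq2 1.42.0, its size factors in place of TMM, limma 3.58.1 on log2(FPKM + 1), no filter, a replicate block, a loess length correction (span 0.3), scaling to subunit genes, the compared libraries alone, and each library left out. The fits were tested on simulated counts.

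Members and lists were chosen with earlier results of these data known. Named genes were the 4 highest per subunit by mean FPKM, the member with the smallest p per comparison, the 4 most and 4 least even members, paralogs with parents, 2 kinases, genes missed by symbol and a panel of translation genes; some are left out for space or are not reported here. Totals of 15560946 to 17843715 counts make counting error small for the summed shares, not for members with few counts.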

Additional observations from a re-analysis of the deposited data

How the results depend on the processing

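Counts of called members were 0 in 5 comparisons under every alternative run. For mesalazine against controls the count of 0 became 74 without a filter on low counts, 3 with only the 4 libraries compared and 76 with DESeq2, and ran from 0 to 83 over the fits without each library. The median log2 change of the members depended on gene length and scaling. With the length correction it was 0.076 for the DSS model, 0.191 for Kuiyangling and 0.577 for mesalazine against controls. With that correction and mesalazine 1 left out, added after the data were seen, it was 0.086, 0.194 and 0.386, and -0.193 for Kuiyangling against mesalazine. Scaled to the subunit genes, it was by construction near 0: 0.025, 0.021 and 0.0017 against controls, -0.012 for mesalazine against the DSS model and 0.0030 for Kuiyangling against mesalazine.

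Over the fits without each library the median ran from 0.377 (without DSS model 2) to 1.03 for the DSS model against controls, -0.495 to 0.180 (without DSS model 2) for Kuiyangling and -0.050 (without mesalazine 1) to 1.40 for mesalazine against the DSS model. It ran from -1.62 to -0.169 (without mesalazine 1) for Kuiyangling against mesalazine, 0.426 to 0.624 for Kuiyangling and 0.684 (without mesalazine 1) to 2.15 for mesalazine against controls. The exact permutation p of the ribosomal share ran from 0.0571 to 0.429 and that of the subunit ratio from 0.0571 to 0.524 over their alternatives, with no change of side. Taking shares over counts without Reg3b was also added after the data were seen.

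Same-numbered libraries did not deviate together (correlations from -0.311 to 0.162), so the numbers name animals only; a replicate block left the median at 0.760 for the DSS model and 1.55 for mesalazine against controls, with 0 called, and gave p = 0.375 and 0.417 for the 2 exact permutation tests. Of the log2 changes of single named genes under alternatives, 3009 kept their side, 275 moved by more than the spread between replicates and 80 passed the threshold that they had missed. A share without mitochondrially encoded genes could not be run, since none is in the table, and the ratio is the same by construction over subunit genes alone. Depth limits low members such as Rps6ka2 and Rps6ka5, with 110 and 241 counts over all libraries. The SDs of the subunit genes without mesalazine 1 were added after the data were seen.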
